A study of Mus musculus with 6 samples.

Results

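Tropomyosins and nonmuscle myosin II are the filament-binding and motor parts of the contractile system of fibroblasts. The 8 genes Tpm1, Tpm2, Tpm3, Tpm4, Myh9, Myh10, Myl6 and Myl12b were followed through every probe that the platform annotation assigns to them, which gave 26 of the 45281 probes on the array. Probes of 1 gene were kept apart, because they can read different isoforms. RNA was measured in mouse embryonic fibroblasts, which are cultured connective tissue cells grown out of embryos, of the C57Bl/6NCr strain. The wild type carried intact Lasp1 (Lasp1+/+, 3 arrays) and the knockout carried Lasp1 disrupted on both chromosomes (Lasp1-/-, 3 arrays), with no treatment, age or passage given in the labels. LASP1 is an actin-binding LIM and SH3 domain protein of focal adhesions and the cell edge, and the comparison asked which transcripts differ without it. The labels number the arrays 1 to 3 in each group but do not say that they came from separate cultures or embryos, so p-values measure only the spread between these arrays, which may be technical.

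Tropomyosins are coiled-coil proteins that lie end to end along the groove of the actin filament, where they govern which motors, severing proteins and crosslinkers reach it. Each gene yields several isoforms through alternative starts and exons, and the isoforms mark different filament populations, with stress fibres rich in the products of Tpm1, Tpm2 and Tpm4. Nonmuscle myosin II is a hexamer of heavy chains (Myh9 for IIA, Myh10 for IIB), essential light chains (Myl6) and regulatory light chains (Myl12b among them). It pulls on actin filaments and gives stress fibres their tension once its regulatory light chains are phosphorylated.

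Deposited values were probe intensities on a linear scale in which every array had a median of 1000, and upper quartiles ran from 2018 to 2330, highest in wild type replicate 2 and knockout replicate 1. Lasp1 itself read 135295, 148208 and 148809 in wild type and 51904, 51019 and 49770 in knockout at its brightest probe. That 2.83-fold difference goes with the labels, although the knockout mean there was still 35.3% of that of wild type. A dimmer Lasp1 probe was 4.10-fold lower (means of 12502 and 3097), and the remaining one was near background (1107 and 923). Where the probes lie relative to the disruption was not determined here. All 10 fibroblast markers examined, among them Col1a1, Thy1 and Pdgfra, were above background on the arrays. Their summed intensity was 996357 to 1157293 in wild type and 812180 to 867690 in knockout, and all 10 were lower. By limma 5 of the 10 fell, against 4.09% of all genes and 7.49% of probes above 1.5 times the array median. At an unadjusted p under 0.05, 8 of the 10 were lower, against 2472 of all 19057 genes. The deposited values appear to include background, with 593 the lowest value on any array. A probe is called near background here when neither group's mean reached 1.5 times the array median. By that measure 8 of the 26 probes were near background and 18 were not.

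Tpm1 and Tpm2 were about 1.25-fold higher in knockout at their brightest probes, and 1 of the 3 Tpm4 probes was 2.06-fold higher while its other probes were not. Tpm3 was 1.23-fold lower at its brightest probe but did not pass (limma adjusted p = 0.104). The 4 myosin II genes did not pass at theirs either, with Myh10 the farthest from wild type at 1.18-fold. By limma with Benjamini-Hochberg adjustment over all probes, 3 of the 26 probes rose, 1 each of Tpm1, Tpm2 and Tpm4, and 0 fell. The Tpm2 probe called was not its brightest. At an unadjusted p under 0.05, 6 of the 26 were higher and 1 lower. That unadjusted count was not made over all probes. With 1 probe per gene, 1083 of 19057 genes were higher and 2472 lower at that level. Over the whole array 3.9% of probes were called, and 11.5% of those that reached 1.5 times the median in at least 1 group. Calls higher in knockout made up 1.4% of all probes and 3.96% of the brighter ones, and calls lower in knockout 2.5% and 7.49%. Of all called probes 35.9% were higher in knockout, against 51.9% after quantile normalization. When wild type replicate 2 was left out 4 of the 26 probes were called, 2 higher (1 each of Tpm2 and Tpm4) and 2 lower (1 each of Tpm3 and Tpm4), and the Tpm1 call and the call of Tpm2 ILMN_2482209 were lost. The count was 1 when replicate 1 of either genotype was, and 0 when any 1 of the other arrays was, where 6 to 9 had an unadjusted p under 0.05. Those unadjusted counts were not made over all probes either. RNA from a bulk culture cannot tell fewer cells of a type from less RNA per cell.

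Tpm1, whose long isoforms are the main stress fibre tropomyosins, had 2 bright probes that moved alike. At the brightest (ILMN_3007072) the wild-type arrays read 225491, 229491 and 232371 and the knockout arrays 310987, 273402 and 273461. Every knockout array lay above every wild-type array, and the wild-type values were within a narrow band. The means were 229117 ± 3455 and 285950 ± 21682 (SD, n = 3 each), a log2 difference of 0.32 ± 0.07 (SE) or 1.25-fold, with a limma adjusted p of 0.0476. That call was lost whichever single array was left out (adjusted p 0.0591 to 0.159), and it held in 2 of 13 alternative settings, which were quantile normalization and array weights. The other bright probe (ILMN_2518346) read 78880, 90998 and 81961 in wild type and 126724, 92767 and 102730 in knockout. The groups again did not overlap, but knockout replicate 2 came close to wild type replicate 2. Its difference was 0.35 ± 0.11 (1.27-fold, limma adjusted p = 0.159), and after quantile normalization it passed (0.41, adjusted p = 0.0129). The ratio of the dimmer to the brighter Tpm1 probe differed between genotypes by 0.03 on the log2 scale, with a 95% interval of the fold from 0.861 to 1.21 and a limma adjusted p of 0.944. The remaining probe (ILMN_1237801), designed to a cDNA clone, lay near background with means of 826 and 827.

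Tpm2, the beta-tropomyosin gene of muscle and of stress fibres, was higher to the same degree. Its brightest probe (ILMN_2487170) read 48598, 51060 and 46936 in wild type and 65999, 58476 and 58702 in knockout. All knockout values exceeded all wild-type values, and knockout replicate 1 was the highest, as for Tpm1. The log2 difference was 0.32 ± 0.07 (1.25-fold), and its limma adjusted p was 0.0503 over all probes and 0.0463 in the fit with 1 probe per gene. A dimmer probe (ILMN_2482209) read 1886, 1649 and 1916 in wild type and 2499, 2190 and 2331 in knockout. This was the called Tpm2 probe, at 0.37 ± 0.08 (1.29-fold, limma adjusted p = 0.0457), and without any single array its adjusted p was 0.0535 to 0.174. The dimmest (ILMN_2787172) read 1126, 1261 and 1252 in wild type and 1943, 1182 and 1523 in knockout, and passed the brightness limit only through the knockout mean. Knockout replicate 2 lay among the wild-type arrays there, and the difference of 0.33 ± 0.15 did not pass (limma adjusted p = 0.368). The ratio of either dimmer probe to the brightest did not pass, with fold intervals from 0.868 to 1.23 and from 0.814 to 1.24. The direction of Tpm1 and Tpm2 at their bright probes was the same in the deposited scaling, after quantile normalization and after normexp background correction. At such high intensities the background correction could hardly change a sign. With normexp the differences at the brightest probes of Tpm1 and Tpm2 were both 0.32 and did not pass (limma adjusted p = 0.451 and 0.445).

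**Figure D1:**
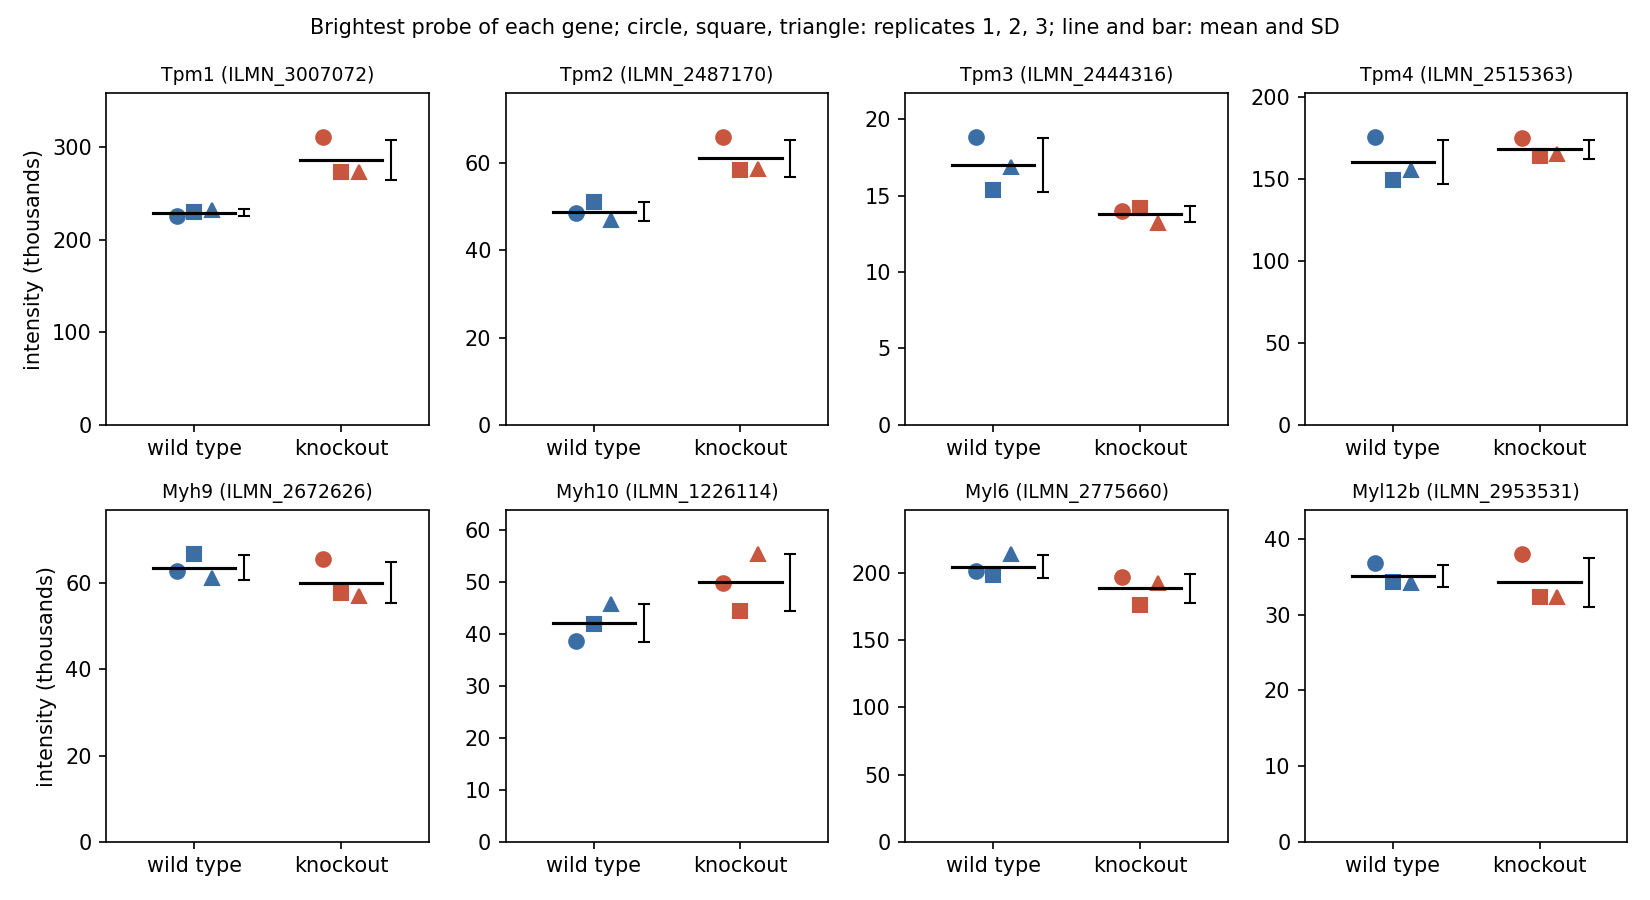
Intensity (in units of 1000, linear axis from 0) of the brightest probe of each of the 8 genes on the 6 arrays, with wild type in blue and knockout in red, the group mean as a line and the SD as a bar (n = 3). The 3 knockout arrays lie above all wild-type arrays for Tpm1 and Tpm2 and below them for Tpm3 and Myl6, and the groups overlap for Tpm4, Myh9, Myh10 and Myl12b.

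Because Tpm1 and Tpm2 were both higher in knockout at their brightest probes, the 250 bases before their RefSeq starts in GRCm38.p6 are shown. Matches to the motifs searched are in capitals. Shared regulation of the 2 genes was not tested. Both lie on the minus strand, Tpm1 at chr9:67049214-67049463 and Tpm2 at chr4:43523555-43523804, printed 5′ to 3′ along the gene.
Tpm1: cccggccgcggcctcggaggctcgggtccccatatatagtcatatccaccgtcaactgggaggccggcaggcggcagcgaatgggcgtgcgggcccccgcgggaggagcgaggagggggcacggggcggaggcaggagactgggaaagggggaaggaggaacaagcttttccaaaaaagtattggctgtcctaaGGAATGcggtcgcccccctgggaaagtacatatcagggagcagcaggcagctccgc
Tpm2: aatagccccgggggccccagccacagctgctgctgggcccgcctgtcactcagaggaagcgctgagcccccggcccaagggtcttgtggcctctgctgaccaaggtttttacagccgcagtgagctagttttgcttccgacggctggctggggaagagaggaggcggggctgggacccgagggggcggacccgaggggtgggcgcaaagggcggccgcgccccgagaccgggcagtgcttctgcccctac
The motifs were the CArG box bound by serum response factor, CATTCC bound by TEAD factors and TGANTCA bound by AP-1, each on both strands over the 300-base window that ends 50 bases past the start. The Tpm1 window held 1 CATTCC match, in the reverse orientation, 56 to 51 bases before the start, and the Tpm2 window held none of the 3 motifs. Among 32851 RefSeq promoter windows of that length, 14.7% held CATTCC, 1.63% the CArG box and 7.81% TGANTCA. All 8 genes had at least 1 window, 10 in all with 2 starts each for Tpm3 and Myl6, and 2 other matches were found. Both are shown because they are the remaining motif matches among these genes, Myl6 at chr10:128493035-128493074 on the minus strand and Myh10 at chr11:68691875-68691914 on the plus strand.
Myl6: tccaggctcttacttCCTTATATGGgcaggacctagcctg
Myh10: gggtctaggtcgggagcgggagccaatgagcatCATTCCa
The CArG box lies 50 to 41 bases before the more downstream of the 2 Myl6 starts, and the Myh10 match lies 7 to 2 bases before its start. These matches describe letters in a window and were not related to the intensities. The Tpm1 and Tpm2 windows were rich in G and C (66.3% and 70.3%), as was that of Tpm4 (76.0%), while the Tpm3 windows held 52.0% and 55.7%.

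Tpm3, a source of short cytoplasmic tropomyosins, went the other way at its brightest probe (ILMN_2444316). The wild-type arrays read 18847, 15351 and 16848 and the knockout arrays 14016, 14179 and 13230. Every knockout value was below every wild-type value, with wild type replicate 2 the nearest. The log2 difference was -0.30 ± 0.09 (1.23-fold lower) and did not pass (limma adjusted p = 0.104). It passed without wild type replicate 2 (-0.37, adjusted p = 0.0258) and with array weights (-0.31, adjusted p = 0.033). A second probe (ILMN_2435584), designed to a cDNA clone, read 2164, 2116 and 2310 against 2169, 1995 and 2099. Its groups overlapped and its difference was -0.07 ± 0.07 (limma adjusted p = 0.742). The ratio of this probe to the brightest was higher in all 3 knockout arrays than in any wild-type array, by 0.22 ± 0.11 on the log2 scale, and that difference did not pass (limma adjusted p = 0.355). The other 4 Tpm3 probes were near background, with group means between 813 and 1122.

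Tpm4 is the gene of a short tropomyosin that recruits myosin II to stress fibres. It held the single called probe ratio of these genes, where 5.1% of all ratios were called. Ratios of a dim Myh9 probe (0.42, limma adjusted p = 0.193) and a near-background Tpm3 probe (0.41, limma adjusted p = 0.0547) did not pass. At the brightest Tpm4 probe (ILMN_2515363) wild type read 175995, 149865 and 155867 and knockout read 175017, 164231 and 165581. The groups overlapped, and the difference was 0.07 ± 0.08 with a 95% interval of the fold from 0.929 to 1.19 (limma adjusted p = 0.791). At a dimmer probe designed to a cDNA clone (ILMN_2571616) wild type read 5589, 9716 and 5534 and knockout read 14513, 13403 and 13592. The knockout arrays lay close together and well above wild type, and wild type replicate 2 stood apart from the other wild-type arrays. This was the highest difference of all 26 probes, at 1.05 ± 0.19 on the log2 scale (2.06-fold, interval 1.54 to 2.77, limma adjusted p = 0.0166). The size without wild type replicate 2 was 1.31 with an adjusted p of 7.54e-06. Leaving out wild type replicate 3 ended the call, as did leaving out replicate 2 or 3 of the knockout (differences 0.91 to 1.07, adjusted p 0.0668 to 0.0953). It was also lost with normexp background correction (1.13, adjusted p = 0.0799). The remaining probe (ILMN_1223539), annotated to the same RefSeq transcript record as the brightest, read 15610, 11010 and 15337 against 12785, 10774 and 11593. Wild type replicate 2 was again apart from the other wild-type arrays, this time low. The difference was -0.24 ± 0.13 (limma adjusted p = 0.467), and it passed without wild type replicate 2 (-0.40, adjusted p = 0.0221).

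Whether the Tpm4 probes differ in their response was tested on their ratios, in which the scaling of an array cancels. The log2 ratio of the cDNA clone probe to the brightest probe was -4.98, -3.95 and -4.82 in wild type and -3.59, -3.62 and -3.61 in knockout. The ratio was therefore higher in every knockout array, and its spread lay almost wholly within wild type. The difference was 0.98 ± 0.21 (1.97-fold, interval 1.43 to 2.70) and its limma adjusted p was 0.0199 in a fit of 15828 ratios between probes of 1 gene. It was the single call among the 18 ratios of these genes, where 5.1% of all ratios were called and 5.4% of those whose probe was above 1.5 times the median. It was lost with normexp background correction (adjusted p = 0.229) and without wild type replicate 3 or any 1 of the knockout arrays (adjusted p 0.0659 to 0.116). For the remaining probe the ratio to the brightest was lower in all knockout arrays, at -0.31 ± 0.12 (limma adjusted p = 0.21), and it passed without wild type replicate 2 (-0.43, adjusted p = 0.0366). Which Tpm4 transcripts each probe reads was not determined here.

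**Figure D2:**
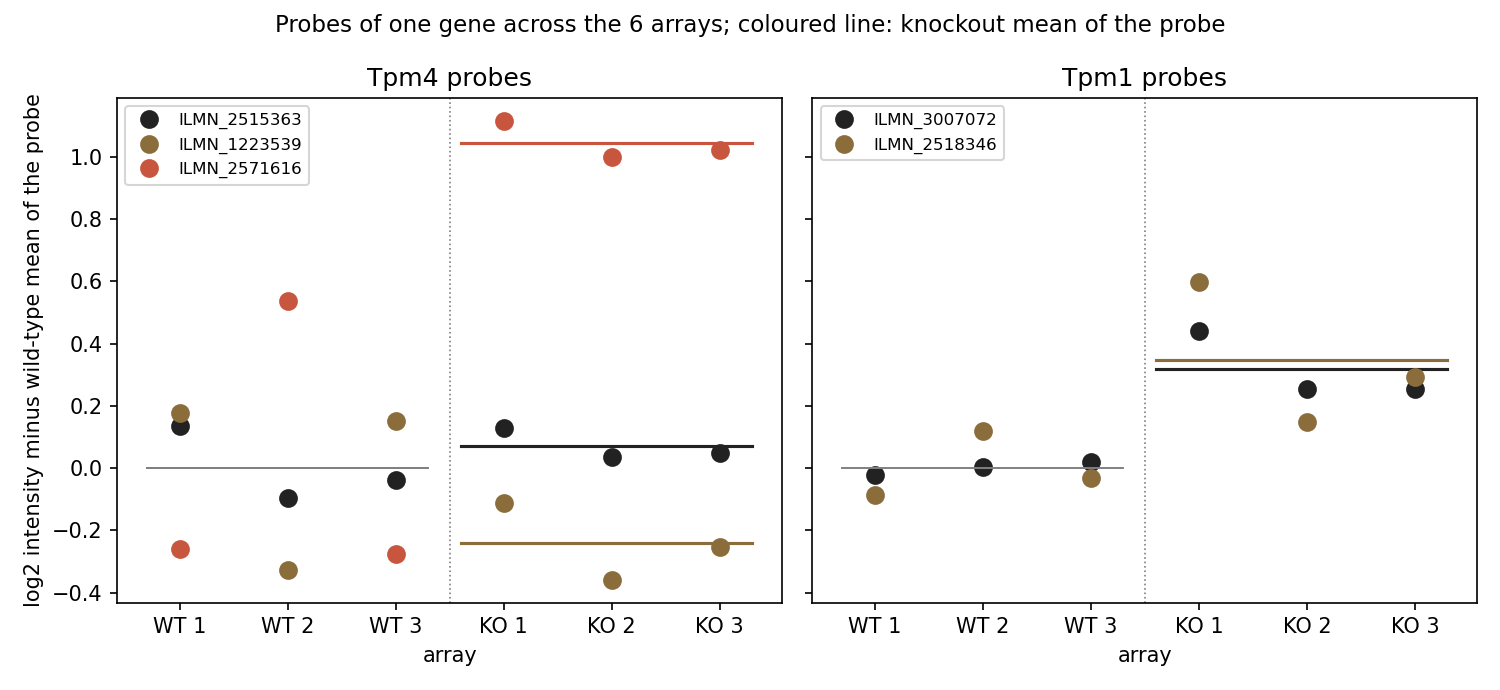
Log2 intensity of each probe minus its own wild-type mean (vertical axis) on the 6 arrays (horizontal axis), for the 3 probes of Tpm4 and the 2 bright probes of Tpm1, with a coloured line at each knockout mean. The clone-derived Tpm4 probe ILMN_2571616 sits at 1.05 on average in knockout while the other Tpm4 probes average 0.07 and -0.24, whereas the Tpm1 probes average 0.32 and 0.35.

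Myh9, the heavy chain of myosin IIA, read 62810, 66754 and 61107 in wild type and 65435, 57706 and 57061 in knockout at its brightest probe (ILMN_2672626). The groups overlapped and the difference was -0.08 ± 0.08, with a fold interval of 0.836 to 1.07 (limma adjusted p = 0.736). After quantile normalization the difference was 0.00032, so no direction is given. A dim probe annotated to the same RefSeq transcript record (ILMN_2604864) read 1142, 1646 and 1057 against 1875, 1237 and 1724, and passed the brightness limit only through the knockout mean. Its highest values were in wild type replicate 2 and knockout replicates 1 and 3, and the difference of 0.34 ± 0.19 did not pass (limma adjusted p = 0.476). Its ratio to the bright probe differed by 0.42 ± 0.16 (limma adjusted p = 0.193), and passed without wild type replicate 2 (0.58, adjusted p = 0.0145) and with array weights (0.54, adjusted p = 0.0298).

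Myh10, the heavy chain of myosin IIB, had 1 bright probe (ILMN_1226114) and 2 probes near background. The bright probe read 38550, 41889 and 45792 in wild type and 49876, 44426 and 55412 in knockout. Knockout replicate 2 lay below wild type replicate 3, so the groups overlapped. The difference was 0.24 ± 0.10 (1.18-fold, interval 1.02 to 1.38), which did not pass over all probes (limma adjusted p = 0.265) or in any of 13 alternatives at probe level. In the fit with 1 probe per gene it passed after quantile normalization alone (0.34, adjusted p = 0.0415).

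The light chains did not pass the test at any of their 5 probes. Myl6, the essential light chain shared by the nonmuscle and smooth muscle myosins, read 200923, 198504 and 213980 against 196892, 176220 and 192166 at its brightest probe (ILMN_2775660). The highest knockout value was just below the lowest wild-type value, and the difference was -0.12 ± 0.07 (limma adjusted p = 0.525), with a fold interval of 0.823 to 1.03. Its second probe (ILMN_2900910) read 153628, 170753 and 154455 against 180569, 136442 and 145633, with overlapping groups and a difference of -0.06 ± 0.11. Myl12b, a regulatory light chain whose phosphorylation switches the motor on, read 36801, 34388 and 34254 against 38061, 32399 and 32342 at its brightest probe (ILMN_2953531). The difference was -0.04 ± 0.08, with a fold interval of 0.855 to 1.11 (limma adjusted p = 0.906), and it was 0.06 after quantile normalization. The other Myl12b probes differed by -0.12 ± 0.09 and -0.14 ± 0.09, with overlapping groups. Myl12b and its neighbour paralogue Myl12a are nearly identical, so a probe of 1 may also read the other.

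**Figure D3:**
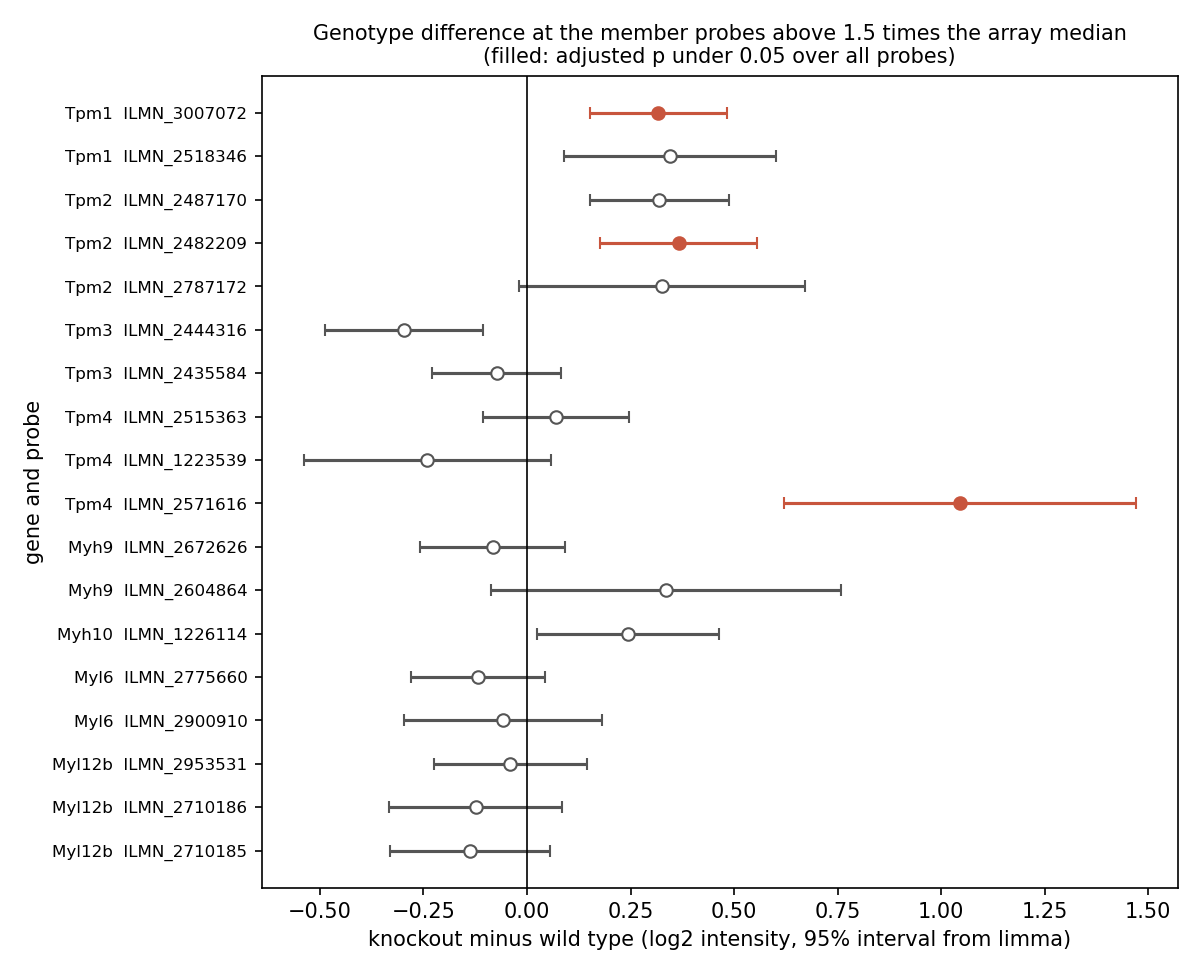
Knockout minus wild type difference (log2 intensity) of the 18 probes above 1.5 times the array median, each with its 95% interval from limma, and filled where the adjusted p over all probes was under 0.05. Filled points stand at 0.32 for Tpm1, 0.37 for Tpm2 and 1.05 for Tpm4, and the myosin II probes lie between -0.14 and 0.34 with intervals that reach close to or across 0.

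Groups that did not overlap were found at 9 of the 26 probes, 6 higher and 3 lower in knockout, against 18.5% of all probes on the array. Of the 18 probes above background 7 were so separated, against 31.7% of all such probes. Among the 8 near-background probes differences ran from -0.09 to 0.12 and the lowest adjusted p was 0.435, and they carry no information on whether the transcripts they target are made. Of those 8 probes, 4 were designed to cDNA clones and 4 to RefSeq transcripts.

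Other parts of the contractile system were taken from lists and counted with 1 probe per gene, its brightest. Among 19057 genes limma called 6.29% (2.2% higher and 4.09% lower in knockout), and 13.2% of those above 1.5 times the median, and the median difference of all genes was -0.02. At an unadjusted p under 0.05, 1083 of the 19057 genes were higher and 2472 lower in knockout. The unadjusted counts of the members and lists stand against these. Of the 8 genes above, 2 were called by that fit (Tpm1 with an adjusted p of 0.0443 and Tpm2), and their median was 0.02. With any 1 array other than wild type replicate 2 left out, 0 of the 8 were called by limma, and 3 or 4 had an unadjusted p under 0.05. That unadjusted count was not made over all genes with an array left out. With the mean over all probes of a gene the call was Tpm4 (0.29, adjusted p = 0.0334), and Tpm1 (0.22, adjusted p = 0.126) and Tpm2 (0.34, adjusted p = 0.0738) did not pass. Of 5 other myosin II subunits, 1 rose. That gene was Myl9, the regulatory light chain typical of smooth muscle, which read 33399, 31618 and 32578 in wild type and 48631, 41171 and 39077 in knockout. The groups were well apart, at 0.40 ± 0.09 (1.32-fold, limma adjusted p = 0.0364). Leaving out any 1 array other than wild type replicate 1 ended the call (adjusted p 0.0567 to 0.144). Myh11, the smooth muscle heavy chain, read 2475 ± 249 and 2999 ± 258 (SD, n = 3 each), a difference of 0.28 ± 0.10 that did not pass (limma adjusted p = 0.152). Myl12a differed by -0.01 ± 0.08 and Myl6b by -0.07 ± 0.08, and Myh14, the heavy chain of myosin IIC, was near background (906 and 873).

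Among 31 measured regulators of myosin II, including kinases, exchange factors and the subunits of myosin phosphatase, 2 fell and 0 rose. At an unadjusted p under 0.05, 1 was higher and 4 were lower, against 1083 and 2472 of all 19057 genes. Ppp1r14a encodes CPI-17, an inhibitor of myosin phosphatase. It read 1782, 2090 and 1843 in wild type and 1318, 1364 and 1284 in knockout, with clear separation and a difference of -0.52 ± 0.08 (limma adjusted p = 0.00582). Its brightest probe was above 1.5 times the array median only in wild type, and the difference was -0.27 with the mean over its probes and -0.89 with normexp background correction, called in both. Arhgap35, which encodes a GTPase-activating protein, read 3084, 3329 and 2869 against 2455, 1927 and 2125. Its difference was -0.52 ± 0.10 (1.43-fold lower, limma adjusted p = 0.0178), and leaving out wild type replicate 3 or replicate 2 or 3 of the knockout ended the call (adjusted p 0.0543 to 0.0982). With the mean over its probes the call was also lost, at -0.24 (adjusted p = 0.0663). The median of the list was -0.07.

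Among 17 measured thin filament proteins that work with tropomyosin (tropomodulins, leiomodins, calponins, caldesmon and troponins), 1 rose and 0 fell. At an unadjusted p under 0.05, 1 was higher and 1 lower, against 1083 and 2472 of all 19057 genes. Lmod1, a leiomodin that nucleates tropomyosin-bound actin filaments in smooth muscle, read 1946, 1897 and 2042 in wild type and 3407, 3245 and 3364 in knockout. Each group was tight, and the difference of 0.77 ± 0.07 (1.70-fold, limma adjusted p = 0.000313) held in all 14 alternatives run for it. Of these 17 genes 10 were near background, and the median was 0.00259. Among 12 splicing factors that act on tropomyosin or related muscle exons, 1 rose and 0 fell, with 2 higher and 2 lower at an unadjusted p under 0.05. Mbnl1, an RNA-binding protein that promotes adult muscle splice forms, read 34972, 36160 and 35396 against 48732, 43718 and 42279. Its difference was 0.34 ± 0.08 (1.26-fold, limma adjusted p = 0.0348), and leaving out any 1 array other than wild type replicate 2 ended the call (adjusted p 0.0592 to 0.14). With the mean over its probes the difference was 0.14 and did not pass (adjusted p = 0.306). With normexp background correction the calls of Myl9, Arhgap35 and Mbnl1 were also lost (adjusted p 0.0801 to 0.292), while those of Ppp1r14a and Lmod1 were kept. The list median was -0.04.

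**Figure D4:**
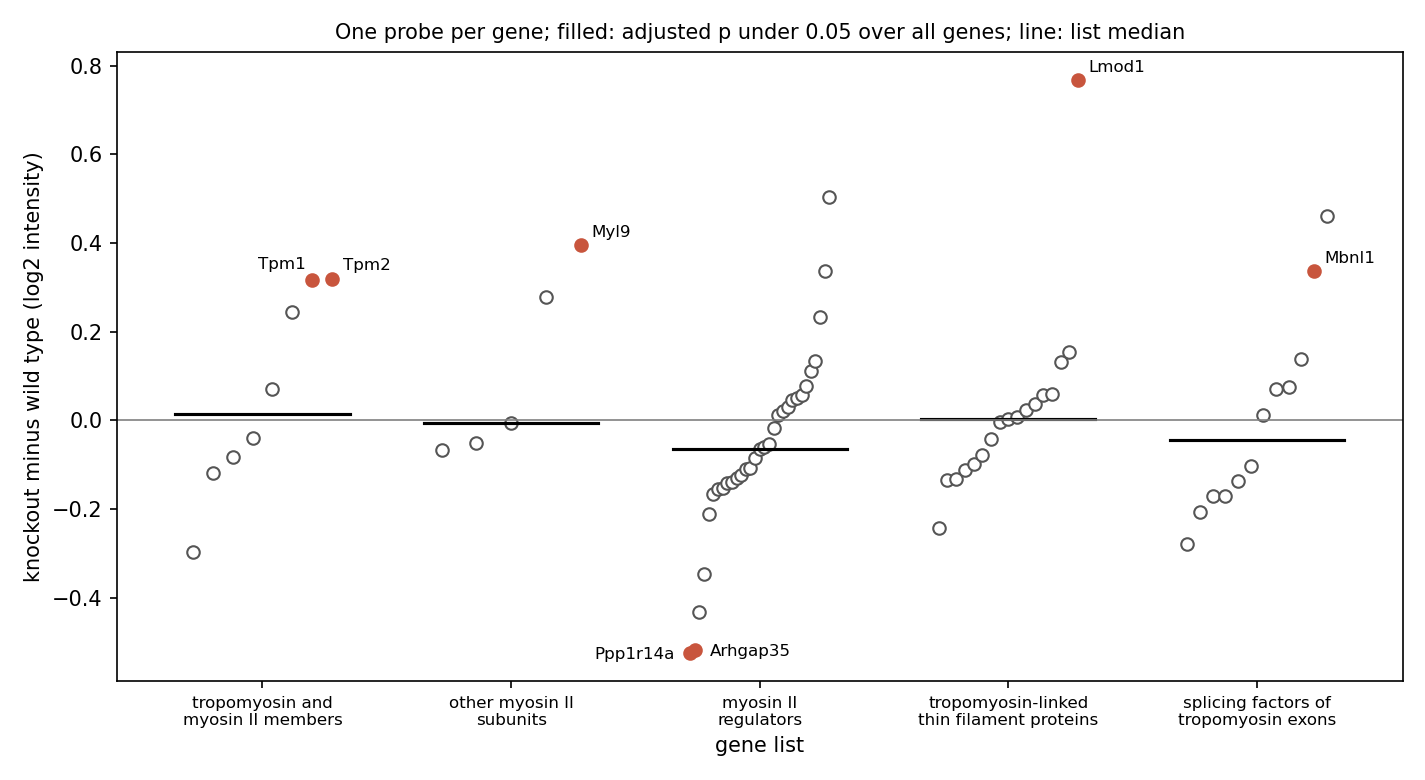
Knockout minus wild type difference (log2 intensity, vertical axis) of each gene at its brightest probe, in the 8 tropomyosin and myosin II genes and the 4 lists around them (horizontal axis), with called genes filled and the list median as a line. Medians lie between -0.07 and 0.02, and the called genes are Tpm1, Tpm2, Myl9, Lmod1 and Mbnl1 above 0 and Ppp1r14a and Arhgap35 below it.

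Muscle cells share several of these genes, so markers of other cell types were set beside them. All 8 measured skeletal and cardiac muscle markers were near background, with summed intensities of 7381 to 7526 in wild type and 7598 to 8047 in knockout, and 1 of them was called higher (Myh6, means of 881 and 1098). Of 6 smooth muscle markers limma called 0, and 2 were higher at an unadjusted p under 0.05. Those were Myh11 (means of 2475 in wild type and 2999 in knockout) and Des (4531 and 5280). The sums over all 6 were 543117 to 563854 in wild type and 574141 to 600042 in knockout. Acta2 supplied nearly all of that, with means of 507140 and 541317 and a difference that did not pass (0.09, limma adjusted p = 0.561). Smtn (35474 and 34227) was also above background, and Myocd and Cnn1 were near background. Endothelial markers summed to 5888 to 6355 and 5622 to 5792 over 5 genes, of which 4 were near background. Limma called 0 of them. At an unadjusted p under 0.05 Pecam1 was higher, near background (896 and 1033), and Tek was lower (2147 and 1750). Over 5 epithelial genes, 3 of them near background, the sums were 6370 to 6552 and 5548 to 5796. Krt8 was called lower (2237 and 1370), and Krt18 was higher at an unadjusted p under 0.05 only (1387 and 1570). The 3 blood markers summed to 5050 to 6125 and 7255 to 7555, with Lyz2 higher (3772 and 5535) and Ptprc and Pf4 near background. The smooth muscle sum, which is nearly all Acta2, and the fibroblast sum moved with genotype in opposite directions. Their part in the tropomyosin differences was not tested.

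The brightest probes with the widest range over the 6 arrays were those of Tpm3 among the tropomyosins (0.51 on the log2 scale) and Myh10 among the myosin II genes (0.52). Of 11985 genes above the median, those nearest to Tpm3 in their centred log2 profile were Adh5, Tmem263 and Hoxd3os1, with root mean square differences of 0.022 to 0.042. Nearest to Myh10 were Plscr1, Trim72 and Septin6, at 0.040 to 0.051. With 6 arrays and so many genes, such closeness is a description of these arrays.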

How the data were processed

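The authors' deposited values are Illumina probe intensities from biotin-labelled cRNA, per the labels' protocols. Each array had been scaled to a median of 1000, as the values show. Which scanner and software were used, and how background was handled, is not stated in the labels, and arrays give no counts, so their number limits the precision. Probes were named from the supplied platform annotation: 34885 of 45281 had 1 gene symbol, 18 several and 10378 none.

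Log2 values, not normalized further, entered linear models with genotype as the only term and 4 residual degrees of freedom (limma 3.58.1 under R 4.3.3, eBayes). Separate fits covered all probes, the brightest probe of each of 19057 genes, and 15828 ratios of another probe of a gene to its brightest. P-values are two-sided, Benjamini-Hochberg adjusted over each whole fit, with a threshold of 0.05. The exact permutation p cannot fall below 0.1 with 3 arrays against 3. A fold change of a dim probe may understate the change, because the values appear to include background, with 593 the lowest.

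Alternatives were quantile normalization, normexp correction (offset 50), a restriction to probes above the median, trend with robust estimation (statmod 1.5.0), array weights, the replicate number as a block, the mean over probes, brighter ratios and leaving out each array. Leaving out wild type replicate 2 with knockout replicate 1 was added after seeing the data. Named were all members, Lasp1, the other myosin II subunits, called list genes up to 4 in each direction, and nearest profiles. Myh6, Acta2, Des, Smtn, Myocd, Cnn1, Pecam1, Tek, Krt8, Krt18, Lyz2, Ptprc, Pf4 and the fibroblast markers are named as markers or after their values were seen. The members and lists were chosen with earlier results of these data known. Promoter sequences are RefSeq's (GRCm38.p6). Probe and protein sequences were not analysed here.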

Additional observations from a re-analysis of the deposited data

How the results depend on the processing

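With all arrays limma called 3 member probes, 2 member genes, 1 member probe ratio, 5 genes over the 4 surrounding lists and 1764 probes on the array. In the same order, quantile normalization called 5, 3, 2, 10 and 3301, array weights 5, 3, 6, 12 and 3434, normexp 0, 0, 0, 2 and 463, and the replicate block 0, 0, 0, 2 and 561. At an unadjusted p under 0.05, normexp had 4 probes, 1 gene and 2 ratios of the members and the block 8, 4 and 6. Unadjusted counts over all probes, genes or ratios were not made in these alternatives. Restriction to probes above the median gave 1 probe and 0 genes (3 genes unadjusted), and trend with robust estimation 1 and 1. The mean over probes gave 1 member gene, Tpm4 in place of Tpm1 and Tpm2, and 3 list genes. Without wild type replicate 2 and knockout replicate 1 the counts were 3, 1, 4, 9 and 3315, where the 3 probes were 1 rise and 2 falls. Leaving out 1 array gave 0 to 4, 0 to 2, 0 to 5, 2 to 8 and 636 to 2836, lowest for the array as a whole without knockout replicate 3 and highest without wild type replicate 2. Signs turned only in differences that did not pass. Under quantile normalization these were Myh9 (0.00032), Myl6 ILMN_2900910 (0.0089), Myl12b (0.064), Myl12a (0.11) and the ratios of Tpm2 ILMN_2482209 (-0.028) and ILMN_2787172 (-0.091). Under array weights they were those ratios (-0.0042 and -0.029) and Myl12a (0.037), and under the mean over probes Myh9 (0.11). Without the same pair of arrays they were Tpm4 ILMN_2515363 (-0.0063), Myl12a (0.00033) and the ratios of Tpm2 ILMN_2482209 (-0.046), ILMN_2787172 (-0.12) and Myl12b ILMN_2710185 (0.072). Without 1 array the signs that turned were those of Myl6 ILMN_2900910 (-0.18 to 0.025), Myl12a (-0.048 to 0.049) and the ratios of Tpm1 ILMN_2518346 (-0.035 to 0.097), Tpm2 ILMN_2482209 (-0.055 to 0.11), ILMN_2787172 (-0.12 to 0.16) and Myl6 ILMN_2900910 (-0.026 to 0.13). The cause of these changes was not tested. Same-numbered arrays deviated together for number 3 only (correlations of deviations -0.41, -0.31 and 0.29 for numbers 1 to 3 over 14410 probes), so the numbers are not taken as pairs. With the block the adjusted p of the clone-derived Tpm4 probe was 0.078 and that of its ratio 0.0579.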

Other observations

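Deviations from the group means over 14410 probes correlated at 0.49 between the arrays of highest upper quartile, which were replicate 2 of wild type and replicate 1 of the knockout, and at 0.38 between wild type replicate 1 and knockout replicate 2. Between replicate 3 of wild type and replicate 3 of the knockout the correlation was 0.29. That first pair holds the outlying value of the clone-derived Tpm4 probe in wild type (9716) and the highest knockout values at the brightest probes of Tpm1 (310987) and Tpm2 (65999).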
